A study of Homo sapiens with 4 samples.

Results

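The genes described here supply cells with pyrimidine nucleotides and with the deoxynucleotides (dNTPs) used to copy DNA. They are CAD, DHODH, UMPS, CTPS1, RRM1, RRM2, TYMS, TK1 and DUT, taken by gene symbol from the annotation of an expression array. All 9 had at least 1 probe, 11 probes in all, of 47323 on the array, and all 9 were among the 10466 genes with a tested signal. The arrays measured RNA of HCT116 cells, an established line from a human colorectal carcinoma, 72 h after transfection with 40 nM siRNA, a short duplex RNA that lowers a chosen messenger RNA. The Las1L siRNA group had 2 arrays, 1 with siRNA #1 and 1 with siRNA #2, and the control siRNA group had 2 arrays with the same control duplex. All 4 arrays shared the cell line, the dose and the time, and no label names separate cultures, so p-values measure only the spread between these samples, which may be technical. The series concerns gene expression in cancer cells under nucleolar stress, and LAS1L, the target, acts in the nucleolus on precursors of large-subunit ribosomal RNA.

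Pyrimidine synthesis builds the ring from simple precursors up to UMP, from which UTP and CTP are made for RNA. Ribonucleotide reductase then turns ribonucleotides into deoxynucleotides, and a side branch through dUMP makes thymidylate, the building block particular to DNA. Several of these enzymes are made mainly when cells copy DNA, and inhibitors of the route, such as 5-fluorouracil, are long-standing drugs against colorectal cancer.

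The strands given in the labels define the groups, and they are shown 5′ to 3′ without the 2 thymidines of the overhang.
Las1L siRNA #1: cugauacgcuguaagcucu
Las1L siRNA #2: cauuuauacccagagugga
Control siRNA: gaucauacgugcgaucaga
The LAS1L probe gave 211.5 signal units with siRNA #1 and 158.1 with siRNA #2, against 770 and 717.5 with control siRNA. The signal was thus at 28.4% of the control mean with siRNA #1 and at 21.3% with siRNA #2. Of 6 epithelial markers, EPCAM, KRT8, KRT18, KRT19 and CDH1 were above background on all 4 arrays and CLDN4 was not. Of 5 fibroblast, 3 endothelial and 5 leukocyte markers, 0 were above background on all 4 arrays. Log2 signals correlated at 0.989 between the Las1L arrays, 0.988 between the control arrays and 0.974 to 0.975 across the groups.

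Within the route, the transcripts of its steps moved in different directions in a fit with an intensity trend, defined below. In the main fit, without the trend, 0 of the 9 passed. RRM2, a small subunit of ribonucleotide reductase, was 1.51-fold lower with Las1L siRNA, and CTPS1, which makes CTP from UTP, was 1.34-fold lower. DUT, the enzyme that clears dUTP and yields dUMP, was 1.5-fold higher on its representative probe. Its second tested probe, at 0.24 on the log2 scale, did not pass. UMPS and DHODH, enzymes of the steps up to UMP, had the lowest ratios of the 9 together with RRM2, but did not pass this test. TYMS and TK1, which make thymidylate, stayed closest to 0, at -0.14 and 0.15 on the log2 scale. In bulk RNA, fewer cells making a transcript and less of it per cell cannot be told apart. In the text below, "fell" and "rose" mean an adjusted p under 0.05, two-sided, in limma with an intensity trend, a fit in which the assumed variance depends on the mean signal.

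In that fit 2 of the 9 genes fell and 1 rose, where 9.17% of all tested genes fell and 9.64% rose. In limma without the trend, the main fit, 0 of 9 passed, as did 0% of all genes, although 5 of the 9, and 2676 of 10466 genes, had an unadjusted p under 0.05. Both Las1L arrays lay below both control arrays for 6 of the 9, against 29.8% of all genes, and above both for 2, against 29.9%. The median log2 fold change of the 9 was -0.26, and that of all tested genes was 0.00. The count of 3 became 0 without control replicate 1, without siRNA #1, without siRNA #2, with a floor of 50 signal units, with no filter on dim probes and with the siRNAs as separate groups. The share of all genes called was 7.77% without control replicate 1, 0% without either siRNA, 0.296% with the floor of 50, 0% with no filter and 2.12% with separate groups. When only probes above background on every array were kept, the fit without a trend passed DHODH and UMPS as lower and DUT as higher, where it called 4.52% of genes lower and 4.86% higher.

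**Figure D1:**
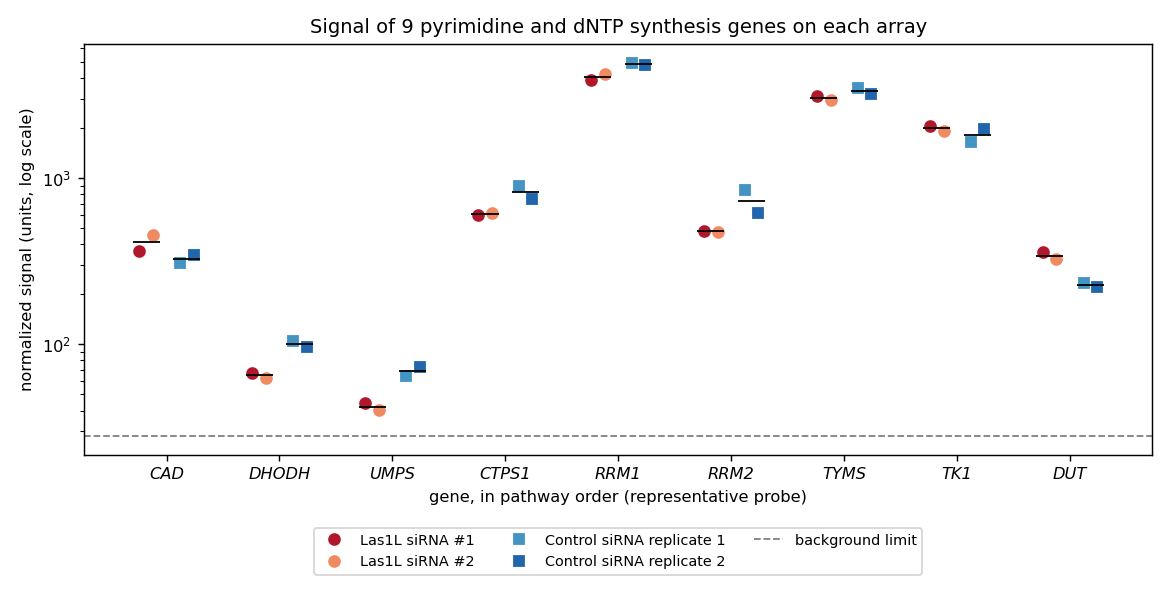
Normalized signal (log axis) of each gene's representative probe on each array, with Las1L siRNA arrays as circles left of the control siRNA squares, group means as bars and the background limit of 28.1 units dashed. RRM2, CTPS1, UMPS and DHODH have both circles below both squares, DUT has both above, and for TK1 the groups overlap; heights of different genes cannot be compared, since probes differ in brightness.

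The starts of the 3 genes that passed are shown because they differ in the motifs they hold. Windows of 250 bases before and 50 bases after each start came from RefSeq on GRCh38.p14, with 15 windows for the 9 genes, and where a gene had several starts the window shown was chosen after the search. Capitals mark matches, on either strand, to the CCAAT box (CCAAT) or to an E2F-type motif (TTTGGCGC, TTTCGCGC, TTTCCCGC or TTTGCCGC).
RRM2, chr2:10122489-10122788, plus strand: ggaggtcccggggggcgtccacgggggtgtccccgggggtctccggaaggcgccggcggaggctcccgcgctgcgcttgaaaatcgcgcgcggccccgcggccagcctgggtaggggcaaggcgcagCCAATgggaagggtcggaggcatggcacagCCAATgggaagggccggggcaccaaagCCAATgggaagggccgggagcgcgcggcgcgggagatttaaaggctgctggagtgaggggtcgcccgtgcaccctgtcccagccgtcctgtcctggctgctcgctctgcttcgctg
CTPS1, chr1:40979446-40979745, plus strand: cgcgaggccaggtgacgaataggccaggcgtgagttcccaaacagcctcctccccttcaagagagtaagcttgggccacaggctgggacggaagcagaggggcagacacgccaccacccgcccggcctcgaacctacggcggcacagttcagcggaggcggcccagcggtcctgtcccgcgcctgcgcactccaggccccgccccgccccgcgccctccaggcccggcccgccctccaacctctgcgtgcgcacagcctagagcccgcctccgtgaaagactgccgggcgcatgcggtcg
DUT, chr15:48331947-48332246, plus strand: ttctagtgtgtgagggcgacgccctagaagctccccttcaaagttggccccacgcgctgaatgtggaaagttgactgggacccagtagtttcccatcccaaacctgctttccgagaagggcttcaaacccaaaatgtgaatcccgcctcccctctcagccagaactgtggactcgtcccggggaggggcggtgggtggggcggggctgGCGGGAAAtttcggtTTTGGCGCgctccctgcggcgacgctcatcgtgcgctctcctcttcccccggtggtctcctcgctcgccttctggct
The RRM2 window held 3 CCAAT boxes, with first bases 123, 93 and 66 bases before the start, and 3.26% of 35116 windows of that length held 3 or more. The DUT window held 2 E2F-type matches, with first bases 42 and 27 bases before the start, and 3.31% of all windows held at least 1. The share with 2 or more was not counted, and DUT had several windows in which a match could lie. The CTPS1 window held neither.

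Across the 9 genes, a CCAAT box lay in a window of 5, CAD, DHODH, RRM1, RRM2 and TK1. Counted by window, 6 of their 15 windows held at least 1 (40.0%), near the 34.61% of all windows. An E2F-type match lay in 2 of the 15 windows, 1 each of TYMS and DUT. No match of the motifs overlapped a match of the other kind. Of the 3 genes that passed, RRM2 had CCAAT boxes, DUT had E2F-type matches and CTPS1 had neither. CCAAT boxes are bound by NF-Y and E2F-type motifs by the E2F factors, which act in the S phase programme, but a match is a string of letters and not a measured site, and which start each array signal reflects was not measured.

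**Figure D2:**
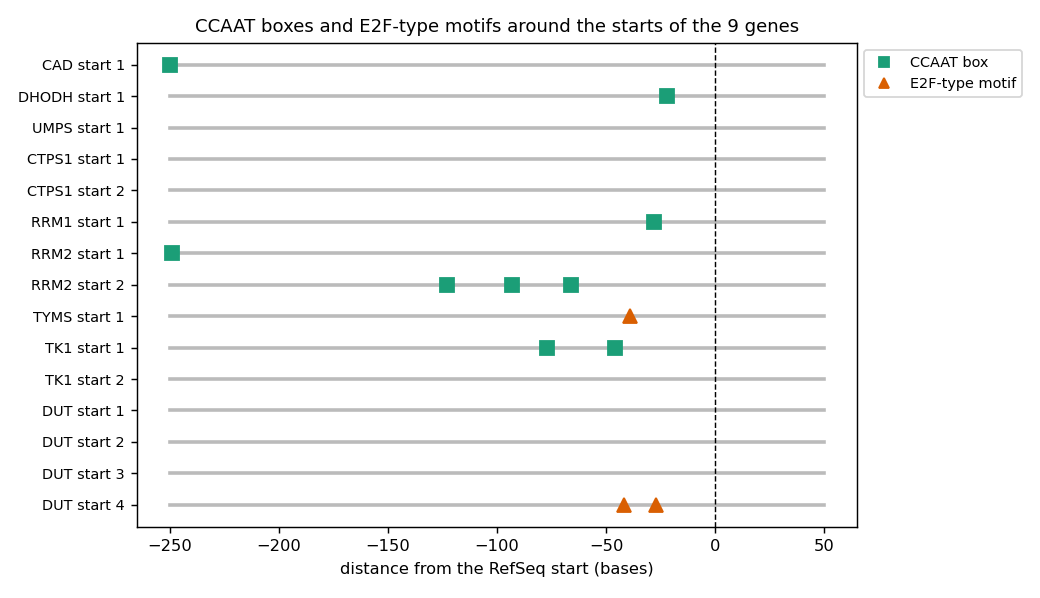
Distance in bases from each RefSeq start to the first base of CCAAT boxes (squares) and E2F-type matches (triangles), 1 line per window. RRM2 start 2 carries 3 CCAAT boxes, TK1 start 1 carries 2, and the E2F-type matches lie at TYMS start 1 and DUT start 4.

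The steps up to UMP begin with CAD, a single protein with the activities that make carbamoyl phosphate and close the ring precursor. CAD gave 361.9 units with siRNA #1 and 457.1 with siRNA #2, against 306.2 and 342 with control siRNA. Both Las1L arrays were above both controls, but the gap between siRNA #1 and the nearer control was smaller than the gap between the siRNAs. The log2 fold change was 0.33 (SE 0.14, 95% interval 0.03 to 0.63 in the trend fit), and it did not pass (adjusted p = 0.124 with the trend and 0.326 without it).

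DHODH, a mitochondrial enzyme that oxidises dihydroorotate to orotate, gave 67.6 and 63.2 units with Las1L siRNA, against 104.4 and 95.9 with control siRNA. Every Las1L value lay below every control value, at 65.3% of the control mean. The log2 fold change was -0.61 (SE 0.23), with an adjusted p of 0.0792 with the trend and 0.0925 without it. Among probes above background on all 4 arrays, the adjusted p without the trend was 0.0416.

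UMPS, which turns orotate into UMP, gave 44.4 and 40.1 units with Las1L siRNA, against 64.7 and 73.2 with control siRNA. The groups did not overlap, and UMPS had the lowest log2 fold change of the 9, -0.71 (SE 0.29), lower than in all but 4.62% of tested genes. The adjusted p was 0.112 with the trend, 0.088 without it and 0.0371 without it among probes above background on all 4 arrays. The DHODH and UMPS probes exceeded the background limit of 28.1 units on all arrays, and their standard errors were larger in the trend fit than without it. With 64 units added to every value in place of the floor, their log2 fold changes became -0.34 and -0.32. RRM2 (-0.54) and CTPS1 (-0.39) were then lower than both. An added constant shrinks the log2 fold changes of dim probes more than those of bright ones, so this order depends on brightness.

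CTPS1 catalyses the amination of UTP to CTP and is needed for proliferation of lymphocytes. It gave 601.9 and 617.1 units with Las1L siRNA, against 890.5 and 751.8 with control siRNA. The Las1L arrays lay close together and below both controls. CTPS1 fell by 0.42 on the log2 scale (SE 0.11, adjusted p = 0.0176 with the trend and 0.18 without it). Its paralogue CTPS2, which catalyses the same reaction, gave 534.7 and 569.6 units with Las1L siRNA on its brightest probe, against 414 and 441.2 with control siRNA. CTPS2 rose by 0.37 (SE 0.12, adjusted p = 0.0401 in limma with the trend), and its other tested probe rose by 0.93. The difference between the changes of CTPS1 and CTPS2 was not tested.

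Ribonucleotide reductase pairs a large subunit, RRM1, with a small radical-bearing subunit, RRM2 or the p53-inducible RRM2B. RRM1 gave 3894.2 and 4228.8 units with Las1L siRNA, against 4930 and 4767 with control siRNA. The groups did not overlap, and the log2 fold change was -0.26 (95% interval -0.44 to -0.07 in the trend fit, adjusted p = 0.0594 with the trend and 0.287 without it). Among probes above background on all 4 arrays RRM1 passed in the trend fit (adjusted p = 0.0414), the 1 of 9 alternatives in which it did.

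RRM2 gave 478.7 and 475 units with Las1L siRNA, against 846.4 and 615.1 with control siRNA. The Las1L arrays were almost equal and below both controls, while the controls differed from each other by 31.7% of their mean. RRM2 fell by 0.60 on the log2 scale (SE 0.14, adjusted p = 0.00674 with the trend and 0.177 without it). Without control replicate 1, the brighter control, RRM2 had a log2 fold change of -0.37, which missed the threshold (trend fit, adjusted p = 0.123).

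RRM2B gave 216.4 and 243.3 units with Las1L siRNA on its brighter probe, against 220.1 and 238.1 with control siRNA. Its groups overlapped, with a log2 fold change of 0.00 (95% interval -0.31 to 0.31 in the trend fit). The dimmer RRM2B probe gave 51 and 77.4 units with Las1L siRNA, against 39.7 and 47.5 with control siRNA, and its log2 fold change of 0.53 did not pass (adjusted p = 0.279 with the trend).

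Thymidylate comes from dUMP through TYMS, the thymidylate synthase that 5-fluorouracil inhibits, or by salvage of thymidine through TK1, the cytosolic thymidine kinase. TYMS gave 3108.2 and 2921.9 units with Las1L siRNA, against 3451.4 and 3210.6 with control siRNA. Both Las1L arrays were below both controls, by less than the spread within either group when the nearest arrays are compared. The log2 fold change was -0.14 (95% interval -0.33 to 0.05 in the trend fit, adjusted p = 0.314).

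TK1 gave 2063.1 and 1917.4 units with Las1L siRNA, against 1649.3 and 1958.4 with control siRNA. This was the only member whose groups overlapped on the representative probe. Its log2 fold change of 0.15 had a 95% interval of -0.07 to 0.36 in the trend fit (adjusted p = 0.375). The value rested on 1 control array, since it was 0.02 without control replicate 1, the dimmer control, and 0.27 without control replicate 2, and neither passed. The mitochondrial thymidine kinase TK2, a different protein, gave 54.1 and 71.4 units with Las1L siRNA, against 68.5 and 75.5 with control siRNA, and did not pass either (log2 fold change -0.21, adjusted p = 0.657 with the trend).

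DUT, the dUTPase that keeps uracil out of DNA, was the member that rose. Its representative probe (ILMN_1732688) gave 359.2 and 323.8 units with Las1L siRNA, against 233.6 and 221 with control siRNA. The groups lay apart by more than the spread within either, and DUT rose by 0.59 on the log2 scale (SE 0.14, adjusted p = 0.00776 with the trend and 0.0996 without it). The second tested probe (ILMN_2374778), annotated to another transcript of the gene, gave 169.8 and 161.6 units with Las1L siRNA, against 160.7 and 123 with control siRNA. It was higher on both Las1L arrays, the smaller of them by less than 1 unit over the nearer control, and did not pass (log2 fold change 0.24, adjusted p = 0.425 with the trend). The third probe (ILMN_1721008) was not tested, since it exceeded the background limit on 1 array, and it gave 31.2 and 27.6 units with Las1L siRNA, against 7.4 and -2.8 with control siRNA. With the mean over both tested probes DUT had 0.41 on the log2 scale and missed the threshold (trend fit, adjusted p = 0.0807). Without control replicate 1 its adjusted p was 0.0548 and without control replicate 2 it was 0.0704, with log2 fold changes of 0.63 and 0.55.

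**Figure D3:**
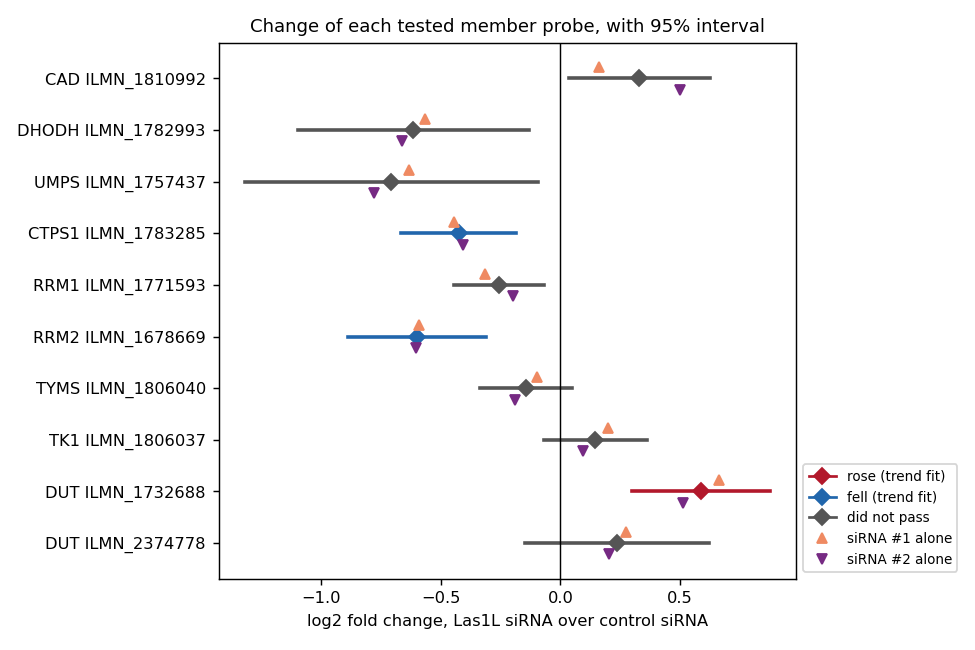
Log2 fold change of the 10 tested member probes, Las1L siRNA over control siRNA, as diamonds with 95% intervals from the trend fit, and with each siRNA alone as triangles. RRM2 and CTPS1 (blue) fell, and the brighter DUT probe (red) rose. The triangles of both siRNAs lie on the same side of 0 for every probe drawn. For every probe but that of TK1 this had to be so, because the groups do not overlap and both siRNAs share the controls.

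Each siRNA was also set against the shared control pair. The log2 fold changes with siRNA #1 and siRNA #2 were -0.59 and -0.60 for RRM2, -0.44 and -0.41 for CTPS1, -0.57 and -0.66 for DHODH, -0.63 and -0.78 for UMPS, and 0.66 and 0.51 for DUT. CAD differed most between the siRNAs, with 0.16 for siRNA #1 and 0.50 for siRNA #2. In limma with 3 groups 0 of 9 genes passed for siRNA #1 and 0 for siRNA #2, as did 0% of all genes in each case, and 3 of the 9 had an unadjusted p under 0.05 with each siRNA, against 14.9% of all genes with siRNA #1 and 15.9% with siRNA #2. With the trend the members did not pass for either siRNA, and neither did LAS1L, the target. LAS1L had log2 fold changes of -1.81 with siRNA #1 and -2.23 with siRNA #2. With single arrays that fit thus could not decide whether a member changed. Set directly against each other, the siRNAs gave 0 calls among the 9, and 0 had an unadjusted p under 0.05, against 3.45% of all genes. The difference for CAD, siRNA #2 minus siRNA #1, was 0.34 (95% interval -0.12 to 0.79 in the trend fit). A missed threshold with single arrays leaves a difference between the siRNAs possible.

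The wider pathway was described through 39 further genes, of which 33 had a tested signal. Of these 33, 9 fell and 2 rose, with a median log2 fold change of -0.03, where 9.17% of all genes fell and 9.64% rose. In the fit without a trend 0 of 33 passed.

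Beside thymidylate synthesis stands DCTD, which deaminates dCMP to dUMP and so feeds the same pool as DUT. DCTD gave 599.2 and 544.3 units with Las1L siRNA, against 904 and 935 with control siRNA. It fell by 0.69 (SE 0.11, adjusted p = 0.000399 with the trend), and its second probe fell by 0.60. UNG, the glycosylase that removes uracil from DNA, fell by 0.33. DGUOK, a mitochondrial deoxyguanosine kinase, rose by 0.29 on its brightest probe, while its other 2 probes were at 0.00 and -0.02. Among the 9 tested genes of deoxynucleotide supply, salvage and clearance, 2 fell and 1 rose.

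Of the 10 genes of nucleotide kinases and CTP synthesis, CTPS2 rose and 0 fell. UCK1 and UCK2, the uridine-cytidine kinases of salvage, had log2 fold changes of -0.87 and -0.27 and did not pass. NME2, a nucleoside diphosphate kinase, had 0.24 on its representative probe and did not pass, and another NME2 probe rose by 0.60; NME1 and NME2 are near-identical neighbours whose probes may share signal.

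Among the 6 tested genes of breakdown and recovery 2 fell. UPP1, uridine phosphorylase, gave 1212.6 and 1221.9 units with Las1L siRNA, against 2057.8 and 2162.6 with control siRNA, and fell by 0.79 (SE 0.09, adjusted p = 3.1e-05 with the trend and 0.0655 without it). NT5C3A, a pyrimidine nucleotidase, fell by 0.58, and its second probe by 0.71. Cytidine deaminase, CDA, was at 0.45 on the log2 scale and missed the threshold. SLC25A36, a mitochondrial carrier of pyrimidine nucleotides, fell by 0.61.

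The folate cycle donates the methyl group of thymidylate, and phosphoribosyl pyrophosphate supplies the sugar of UMP. Of 6 tested genes 4 fell and 0 rose, with a median of -0.31. MTHFD2, a mitochondrial folate dehydrogenase, fell by 0.45 to 2648.5 and 2346.2 units with Las1L siRNA, against 3345 and 3457.8 with control siRNA. The serine hydroxymethyltransferases SHMT1 and SHMT2 fell by 0.32 and 0.29, and PRPS2, a phosphoribosyl pyrophosphate synthetase, fell by 0.38. A dimmer SHMT1 probe gave 42.9 and 42.7 units with Las1L siRNA, against 40.3 and 37.5 with control siRNA. Its log2 fold change of 0.14 did not pass. PRPS1 had a log2 fold change of -0.09 and MTHFD1 one of 0.15, and neither passed.

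**Figure D4:**
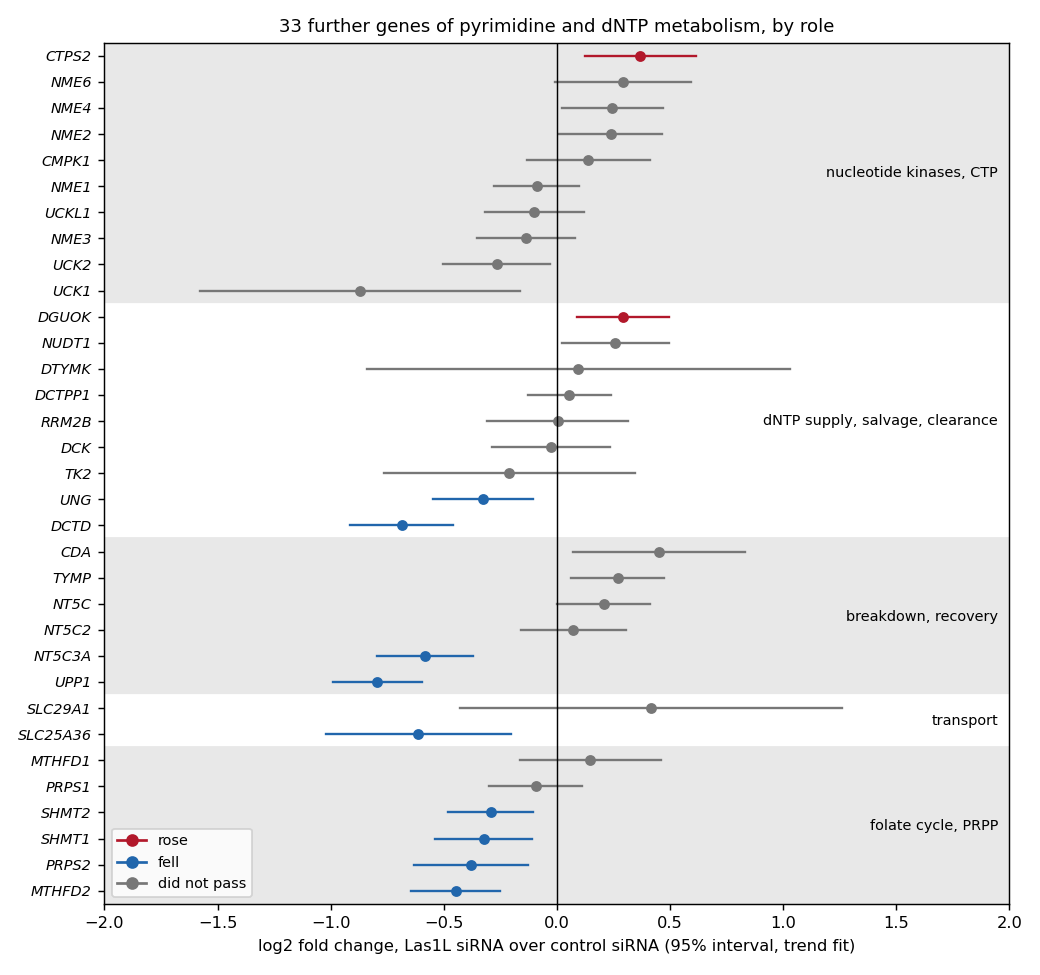
Log2 fold change, Las1L siRNA over control siRNA, of the 33 further genes with a tested signal, grouped by role, with 95% intervals from the trend fit. The 9 genes that fell (blue) lie in the lower 4 groups, 4 of them in the folate and phosphoribosyl group, and the 2 that rose (red) are CTPS2 and DGUOK.

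Lists that share the demand for nucleotides had these values in the same trend fit, where 9.17% of all tested genes fell and 9.64% rose. Of 12 tested genes of purine synthesis 4 fell and 1 rose, with a median log2 fold change of -0.21. Of 28 tested genes of DNA replication 13 fell and 0 rose, with a median of -0.38. The 9 genes described here had 2 and 1, and a median of -0.26, and no difference between the lists was tested.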

How the data were processed

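RNA of 4 HCT116 samples was hybridised to Illumina HumanHT-12 v4 bead arrays, 2 per group. The deposited values are probe intensity on a linear scale, made with GenomeStudio (version and settings not stated in the sources used here), per the submitters' processing notes. The values look background-subtracted (26.9% are below 0) and quantile-normalized (a median of 14.9 on every array). A non-normalized table was left out, because its 8 columns match no sample's labels.

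Values were raised to a floor of 16 before log2, so changes of dim genes are understated. The background limit of 28.1 units was the one-sided 0.05 point of noise estimated from the negative values. Probes above it on at least 2 arrays were tested, 17689 of 47323. Names came from the platform annotation and RefSeq symbols, and the brightest tested probe stood for a gene. limma 3.58.1 in R 4.3.3 was fitted over all tested probes with Benjamini-Hochberg adjustment, without a trend (main) and with an intensity trend. SE values are from the trend fit. In fits of 3 groups, with 1 residual degree of freedom, a single array was taken to have the variance of the control pair. The code was tested on simulated data.

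All members are reported, and of the further genes those past the trend threshold and the paralogues CTPS2, RRM2B and TK2; UCK1, UCK2, NME1, NME2, CDA, PRPS1 and MTHFD1 were added after their values were seen. Members, lists and the intensity trend fit were chosen with earlier results of these data known. Alternatives varied the floor, filter, offset, probe summary, threshold and arrays. The number of arrays limits the precision.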

Additional observations from a re-analysis of the deposited data

Results flagged for a closer look

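The DUT probe ILMN_1721008, which the comparisons did not use because it exceeded the background limit of 28.1 units on 1 array, gave 31.2 units with siRNA #1 and 27.6 with siRNA #2, against 7.4 and -2.8 units with control siRNA. It was picked out because its signal with Las1L siRNA lay above both control values and, on 1 array, above background. The difference was not tested.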

How the results depend on the processing

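Without a trend limma passed 0 members, against 3 above background on all 4 arrays (9.38% of all genes passed there), 2 with an offset of 64 (14.4%), 3 with the intensity trend (18.8%) and 3 at an adjusted p under 0.1 (8.85%). The trend fit passed 3, against 5 at an adjusted p under 0.1 (25.4% of all genes), 4 above background on all 4 arrays (24%) and 0 under each of 3 alternatives: a floor of 50, no filter, and the siRNAs as 3 groups with the controls. Leaving out single arrays gave 0 to 2 members in the trend fit (0% to 10.2% of all genes) and a median log2 fold change of the members between -0.32 and -0.20, where all 4 arrays gave -0.26. Smaller groups enter those fits, and the cause of the other changes was not tested. In the trend fit each of the 9 members kept its direction in 9 of 9 alternatives of floor, filter, offset, probe summary and left-out array. For every member but TK1 the groups did not overlap, so these alternatives could not have reversed the direction and do not test it. For TK1, whose groups overlapped, the log2 fold change ranged from 0.02 to 0.27. CTPS1 and RRM2 passed in 4 of the 9 alternatives, DUT in 2, RRM1 in 1 and the other members in 0. The 3 comparisons of single siRNAs passed 0 members in the settings run. No paired analysis was possible because the labels give the Las1L siRNA arrays siRNA numbers and no replicate numbers that match those of the controls. Signal near background limits UMPS and DHODH, at 40.1 to 104.4 units.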
